A study of Mus musculus with 50 samples.

Results

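TNF, its receptors TNFR1 and TNFR2, the adaptor TRAF2 and the ubiquitin ligases cIAP1 and cIAP2 were followed as 6 genes, Tnf, Tnfrsf1a, Tnfrsf1b, Traf2, Birc2 and Birc3, out of 19494 genes measured in mouse colon. The genes were taken by symbol, each had 1 probe set on the array, and no filter on low values was applied, so all 6 entered every comparison. Their level is the deposited log2 signal, on which a difference of 1 is a doubling. The 50 mice, 1 array each, were 10 to 12 weeks old and were kept in an SPF facility on a standard diet. All deletions of Fadd, Casp8 and Ripk3 were conditional, in intestinal epithelial cells (IEC-KO), whereas Zbp1 -/- and Mlkl -/- are deletions in the whole animal. The sources used here do not name the Cre driver. The RNA came from whole colon tissue, so signals of epithelial, muscle, stromal and immune cells add up, and in such bulk RNA fewer cells of a type and less RNA per cell cannot be told apart.

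Array title numbers fall between 1 and 30 or between 86 and 124, and genotype by number series gave 10 groups of 5 arrays. In series 1-30 the controls were Fadd fl/fl, the single knockouts CASP8 IEC-KO and FADD IEC-KO, and the co-deletions CASP8 IEC-KO Mlkl -/-, FADD IEC-KO Mlkl -/- and, with ZBP1 lost, FADD IEC-KO Zbp1 -/-. In series 86-124 the controls were Casp8 fl/fl, the single knockouts again CASP8 IEC-KO and FADD IEC-KO, and the co-deletion FADD IEC-KO RIPK3 IEC-KO. Differences were taken within a series, against the floxed controls of that series. CASP8 IEC-KO was therefore set against Fadd fl/fl in series 1-30, and FADD IEC-KO against Casp8 fl/fl in series 86-124, and the floxed line and the series cannot be told apart. A mouse is identified by the number in its array title.

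TNF is a cytokine made mainly by myeloid and lymphoid cells and shed from the cell surface. TNFR1, encoded by Tnfrsf1a, is found on most cells and carries a death domain, while TNFR2, encoded by Tnfrsf1b, lacks that domain and is best known on leukocytes and endothelium. On TNF binding, TNFR1 gathers TRADD, RIPK1, TRAF2 and the cIAPs, whose ubiquitin chains recruit the kinases that switch on NF-kappaB. Where this ubiquitin step or caspase-8 activity fails, the same receptor can lead to apoptosis through FADD and caspase-8, or to necroptosis through RIPK3 and MLKL. ZBP1, a sensor of nucleic acids, can engage RIPK3 as well. TNF is a known driver of bowel inflammation and the target of antibodies used against it.

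Promoter sequences were read for the ligand and both receptors, the 3 genes whose levels changed most between groups. They come from RefSeq, build GRCm38.p6, as the 250 bases before the annotated start, printed 5′ to 3′ on the strand of the gene. Tnf lies on the minus strand, with this window at chr17:35202008-35202257. The Tnfrsf1a window is on the plus strand at chr6:125349473-125349722. The Tnfrsf1b window is on the minus strand at chr4:145246871-145247120. Capitals mark TATAAA, searched on the strand of the gene in the last 50 bases of the window.
Tnf: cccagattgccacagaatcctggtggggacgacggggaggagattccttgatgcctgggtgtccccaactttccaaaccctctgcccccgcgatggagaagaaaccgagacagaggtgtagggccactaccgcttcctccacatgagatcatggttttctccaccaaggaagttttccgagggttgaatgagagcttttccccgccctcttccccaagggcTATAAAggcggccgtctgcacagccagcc
Tnfrsf1a: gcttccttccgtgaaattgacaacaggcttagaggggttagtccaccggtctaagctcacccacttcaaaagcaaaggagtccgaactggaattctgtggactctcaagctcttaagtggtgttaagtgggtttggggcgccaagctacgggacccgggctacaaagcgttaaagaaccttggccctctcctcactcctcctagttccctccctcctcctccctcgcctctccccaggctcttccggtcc
Tnfrsf1b: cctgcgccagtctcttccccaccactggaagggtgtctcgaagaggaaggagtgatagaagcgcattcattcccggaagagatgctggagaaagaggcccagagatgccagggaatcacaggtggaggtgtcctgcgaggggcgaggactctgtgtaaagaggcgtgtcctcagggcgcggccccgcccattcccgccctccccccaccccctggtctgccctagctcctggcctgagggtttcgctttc
TATAAA stood in the Tnf window alone among the member genes, 29 to 24 bases before the start, and in 2.63% of 32851 mouse promoters of the same length. The NF-kappaB consensus of 10 bases was searched on both strands of the 250 bases. It was in none of the 7 promoters of the 6 genes (Birc2 has 2 starts) and in 3.90% of all 32851, which says only that these letters are not in these windows.

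The gene bodies lie at chr17:35199367-35202007 for Tnf, chr6:125349723-125362483 for Tnfrsf1a, chr4:145212368-145246870 for Tnfrsf1b and chr2:25517982-25546940 for Traf2 in GRCm38.p6. Birc2 at chr9:7818226-7837131 and Birc3 at chr9:7847468-7873205 are neighbours and close relatives. Whether their probes cross-hybridise was not tested.

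The targeted genes matched the labels where a fall could be read. Fadd group means ran from 6.14 to 6.39 in the 5 groups with FADD IEC-KO and from 7.30 to 7.61 elsewhere. Casp8 ran from 8.98 to 9.14 in the 3 CASP8 IEC-KO groups against 10.2 to 10.8 elsewhere, and Mlkl was 7.17 and 7.31 in the Mlkl -/- groups against 8.14 to 9.18. Ripk3 was 6.68 in FADD IEC-KO RIPK3 IEC-KO and 6.60 in Casp8 fl/fl. Zbp1 was 5.49 in FADD IEC-KO Zbp1 -/- and 5.68 in Fadd fl/fl. Both were below FADD IEC-KO, at 8.09 and 7.29, but not clearly below the floxed controls. Against FADD IEC-KO, Ripk3 also differed by -1.16 with Mlkl loss and -0.92 with Zbp1 loss. Zbp1 differed by -0.48 with Mlkl loss and -0.88 with RIPK3 loss. A fall from FADD IEC-KO therefore does not by itself show either of these 2 deletions. Colon epithelial and smooth muscle markers were high on every array (Epcam 11.7 to 12.1, Acta2 11.2 to 12.5). The muscle markers were lower on some arrays than on any floxed array. Myh11 went down to 9.49 and Tagln to 10.4, against floxed minima of 11.4 and 12.0. Some FADD IEC-KO arrays stood apart by their neutrophil markers. The mean of the 11 measured genes of that list was 4.71 to 4.97 in all 10 floxed arrays, and 7.86 on array 22, 6.64 on array 23, 7.04 on array 117 and 5.86 on array 124. The values of Tnf, its receptors and the gene lists are given with and without these arrays. In series 1-30 the FADD IEC-KO group had a neutrophil list mean of 6.00 and a lowest array of 4.92. The arrays left there without 22 and 23 were therefore not all within the floxed range, and fits without this pair are not free of a raised neutrophil signal.

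With FADD loss Tnf and Tnfrsf1a rose in both series and Tnfrsf1b in series 1-30, and none of Traf2, Birc2 and Birc3 passed. In FADD IEC-KO of series 1-30, 3 of the 6 genes rose and none fell, where 8.59% of all 19494 genes rose and 10.1% fell. In FADD IEC-KO of series 86-124, 2 rose and none fell, against 6.8% and 4.25% of all genes. In CASP8 IEC-KO none of the 6 passed in series 1-30, where 0.123% of all genes passed, and none had an unadjusted p under 0.05, as 11.7% of all genes had. In series 86-124, 1 of the 6 rose and none fell, against 1.8% and 0.662% of all genes. A gene passed when its limma p, adjusted by Benjamini-Hochberg over all 19494 genes, was under 0.05.

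**Figure D1:**
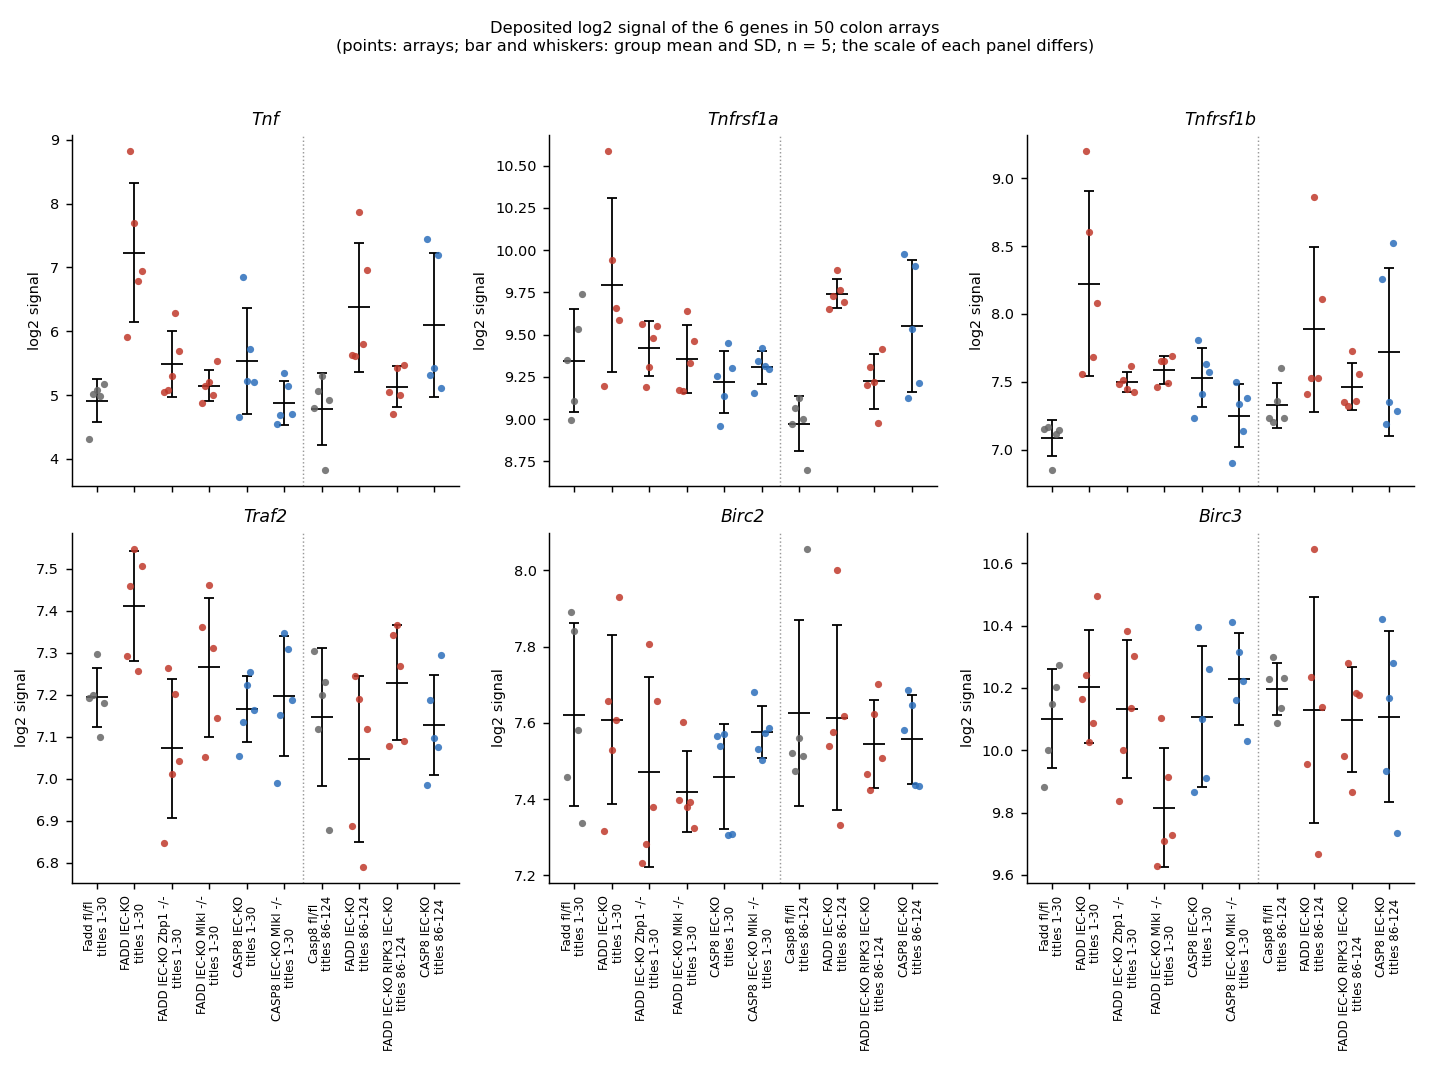
Deposited log2 signal (y axis, 1 panel per gene with its own scale) on each of the 50 arrays, by group (x axis). Points are arrays, bars and whiskers the group mean and SD (n = 5), grey for floxed, red for FADD IEC-KO and blue for CASP8 IEC-KO genotypes, and the dotted line parts series 1-30 from 86-124. Tnf on the FADD IEC-KO arrays sits at 5.91 to 8.82 and 5.61 to 7.87, above the floxed arrays of the same series.

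Tnf, the ligand, was raised in FADD IEC-KO colon in both series. The 5 FADD IEC-KO arrays of series 1-30 read 5.91, 8.82, 7.70, 6.78 and 6.95 (arrays 21 to 25), and the 5 Fadd fl/fl arrays 4.31, 5.02, 5.08, 4.99 and 5.17 (26 to 30). Every knockout array was above every floxed array, as for 4.23% of all genes, with array 22 highest. The means were 7.23 ± 1.09 (SD, n = 5) and 4.91 ± 0.34, a difference of 2.32 (SE 0.43, 4.99-fold, adjusted p = 0.0002751). In series 86-124 the FADD IEC-KO arrays read 5.63, 5.61, 7.87, 5.80 and 6.97 (arrays 89, 95, 117, 120 and 124), and the Casp8 fl/fl arrays 4.80, 5.07, 5.30, 3.83 and 4.92 (86, 91, 98, 105 and 119). Here too the groups did not overlap, as for 4.51% of all genes, but 3 of the 5 knockout arrays were close to the highest control. The difference was 1.59 (SE 0.43, 3.02-fold, adjusted p = 0.01148). The effects of the 2 series differed by -0.72 (SE 0.61, adjusted p = 0.711), and 0.123% of all genes passed that test.

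The Tnf rise of series 1-30 passed without arrays 22 and 23 as well, at 1.63 with an adjusted p of 0.03645 (range over its 17 alternatives 9.185e-06 to 0.03645). That of series 86-124 fell to 0.90 without arrays 117 and 124, with an adjusted p of 0.2641, and to 1.22 without array 117 alone, at 0.07414. It was also at 0.05246 when only the 10 compared arrays were fitted (range over its 17 alternatives 9.185e-06 to 0.2641). The neutrophil list moved with Tnf in series 1-30, where 7 of its 11 measured genes rose with a median difference of 1.12. In series 86-124, 1 of 11 rose, with a median of 0.31. Of the 12 macrophage and monocyte genes, 10 rose in series 1-30 (median 0.68) and 7 in series 86-124 (median 0.64). Of the 13 smooth muscle genes 13 and 4 fell (medians -1.16 and -0.57). Of all genes, 8.59% rose and 10.1% fell in series 1-30, and 6.8% and 4.25% in series 86-124. The T and NK cell list mean was 5.22 in FADD IEC-KO and 4.76 in Fadd fl/fl of series 1-30. In series 86-124 it was 5.19 in FADD IEC-KO and 4.86 in Casp8 fl/fl. The part of these cells in the Tnf values was not tested beyond leaving out the 4 arrays.

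In CASP8 IEC-KO colon Tnf was high on single arrays. Arrays 16 to 20 of series 1-30 read 4.66, 6.85, 5.22, 5.72 and 5.21, with array 17 above the others. The difference from Fadd fl/fl was 0.62 (SE 0.43, adjusted p = 0.591). In series 86-124, arrays 87 and 104 read 7.45 and 7.20, and arrays 92, 100 and 108 read 5.32, 5.43 and 5.11. The difference from Casp8 fl/fl was 1.32 (SE 0.43, adjusted p = 0.0809) and passed only when array 92 or array 108, both low, was left out (adjusted p 0.04935 and 0.03049). The effects of the 2 series differed by 0.70 (SE 0.61, adjusted p = 0.828), where 0.00513% of all genes passed. Arrays 17, 104 and 87 were also above every floxed array (up to 4.97) in the neutrophil list mean, at 5.38, 5.56 and 5.02. Array 108, low in Tnf, was above them too, at 5.04. In the macrophage and monocyte list array 104 was at 7.43, above every floxed array (up to 7.35), and arrays 17 and 87 were at 7.06 and 7.03. Of either list no gene passed in CASP8 IEC-KO against floxed in either series, where 0.123% and 2.46% of all genes passed. Their part in the Tnf values was not tested.

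The 2 single knockouts were also set against each other, over both series. Tnf and Tnfrsf1a were lower in CASP8 IEC-KO than in FADD IEC-KO, 2 of 6 lower and none higher, against 3% and 2.13% of all genes. The difference was -0.99 for Tnf (SE 0.30, adjusted p = 0.04576) and -0.38 for Tnfrsf1a (SE 0.11, adjusted p = 0.03738). Both calls were near the threshold. Leaving out 1 array ended the Tnf call for 11 of the 20 arrays (7 CASP8 IEC-KO arrays, 16, 18, 19, 20, 92, 100 and 108, and FADD IEC-KO arrays 22, 23, 117 and 124), with differences of -1.16 to -0.79 over all 20. The Tnfrsf1a call ended for 10 (16, 17, 18, 92, 100, 108, 22, 23, 117 and 124), with differences of -0.46 to -0.28. Without arrays 22, 23, 117 and 124 together the differences were -0.30 and -0.21, with adjusted p of 0.7865 and 0.5415. Of the marker lists, 9 of 12 macrophage and monocyte genes and 3 of 11 neutrophil genes were also lower in CASP8 IEC-KO, and their part was not tested.

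Tnf was lower again in FADD IEC-KO mice that also lacked MLKL or ZBP1. The FADD IEC-KO Mlkl -/- arrays read 4.88, 5.13, 5.20, 5.00 and 5.53 (arrays 11 to 15), all below every FADD IEC-KO array of series 1-30, as for 2.28% of all genes. The difference was -2.08 (SE 0.43, adjusted p = 0.0035), and Tnf was the 1 member of 6 that fell, where 2.93% of all genes fell and 2.91% rose. The FADD IEC-KO Zbp1 -/- arrays read 5.04, 5.08, 5.31, 6.28 and 5.70 (arrays 1 to 5), with array 4 overlapping the FADD IEC-KO range. The difference was -1.75 (SE 0.43, adjusted p = 0.006873), 1 of 3 members that fell, where 5.14% of all genes fell and 5.61% rose. Both comparisons share the 5 FADD IEC-KO arrays. Without arrays 22 and 23 the differences were -1.40 and -1.07, and neither passed (adjusted p 0.2128 and 0.2539). Fits of the 10 compared arrays alone gave 0.05714 and 0.06912, and the Zbp1 call also ended without array 22 alone (-1.35, adjusted p = 0.05339). In both, 6 of the 11 neutrophil genes were lower than in FADD IEC-KO, with medians of -1.13 and -1.02, and their part in the fall of Tnf was not tested. Over all alternatives the adjusted p ran from 0.0002528 to 0.2128 with Mlkl loss and from 0.0009461 to 0.2539 with Zbp1 loss.

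Epithelial RIPK3 loss and Mlkl loss in CASP8 IEC-KO left no Tnf call. The FADD IEC-KO RIPK3 IEC-KO arrays read 5.05, 4.70, 5.43, 5.00 and 5.47 (arrays 88, 93, 112, 113 and 123), all below the lowest FADD IEC-KO array of series 86-124, as for 1.94% of all genes. The difference was -1.25 (SE 0.43, 95% interval -2.11 to -0.38, adjusted p = 0.152), and -0.55 without arrays 117 and 124. None of the 6 genes passed there, where 0.595% of all genes fell and 0.159% rose, and 2 of the 6 had an unadjusted p under 0.05, as 14.6% of all genes had. CASP8 IEC-KO Mlkl -/- arrays read 4.54, 4.68, 5.34, 5.14 and 4.70 (arrays 6 to 10), -0.65 from CASP8 IEC-KO (SE 0.43, 95% interval -1.52 to 0.21, adjusted p = 0.544). None of the 6 passed there, against 0.421% of all genes, and none had an unadjusted p under 0.05, as 13.1% of all genes had. The test of whether Mlkl loss acted differently in the 2 backgrounds gave 1.43 for Tnf (SE 0.61, adjusted p = 0.368), where 0.0154% of all genes passed.

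Against floxed controls, Tnf in the co-deletions differed by 0.57 with Zbp1 loss, 0.23 with Mlkl loss, 0.35 with RIPK3 loss and -0.03 in CASP8 IEC-KO Mlkl -/-, each with SE 0.43. No member passed in any of these 4 comparisons, in which 1.07%, 0.159%, 0.0769% and 0.0462% of all genes passed. In order of group means, Tnf ran from 4.78 in Casp8 fl/fl, 4.88 in CASP8 IEC-KO Mlkl -/- and 4.91 in Fadd fl/fl through 5.13 to 5.53 in the 3 FADD co-deletions and CASP8 IEC-KO of series 1-30. It then rose to 6.10 in CASP8 IEC-KO of series 86-124 and to 6.38 and 7.23 in FADD IEC-KO. The arrays of every neighbouring pair in this order overlapped.

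**Figure D2:**
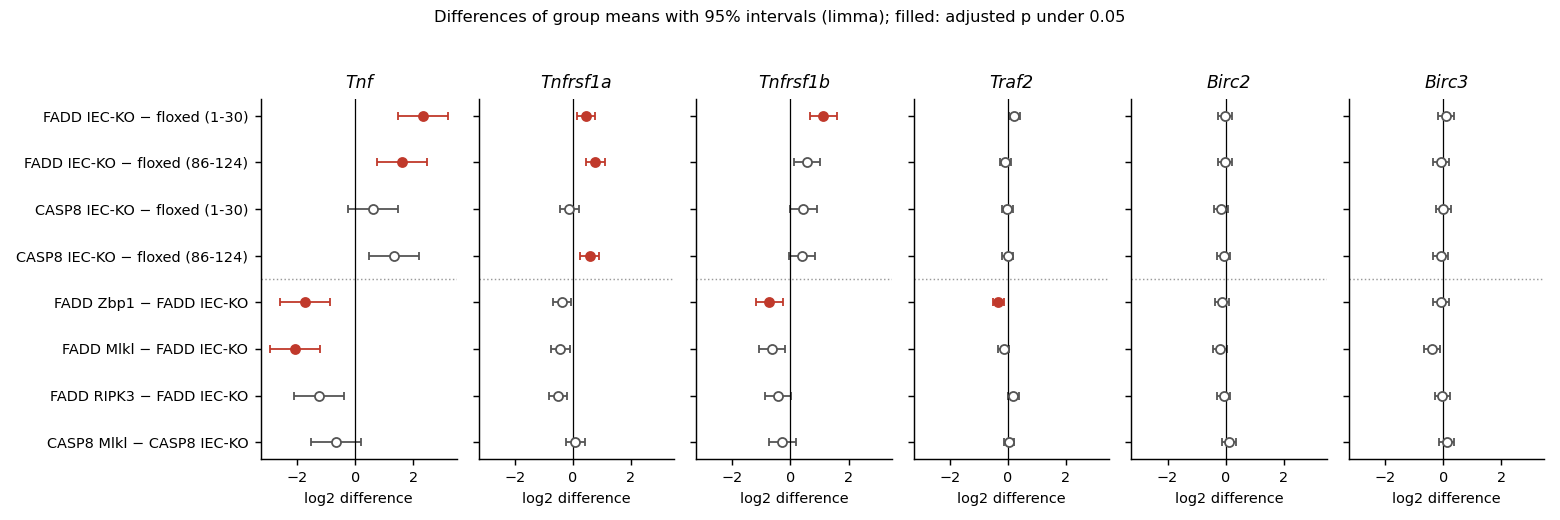
Differences of group means (x axis, log2 units, the same scale in every panel) with 95% intervals from limma, for 8 comparisons (rows) and the 6 genes (panels). Filled red points passed at an adjusted p under 0.05 and open points did not. Tnf has the largest differences, 2.32 and 1.59 with FADD loss, and the intervals of Birc2 include 0 in every row.

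Tnfrsf1a, the gene of TNFR1, rose with FADD loss in both series, and more evenly across mice in series 86-124. There the FADD IEC-KO arrays read 9.65, 9.73, 9.88, 9.76 and 9.69 (arrays 89, 95, 117, 120 and 124), and the Casp8 fl/fl arrays 8.97, 9.07, 9.12, 9.00 and 8.70. The groups did not overlap, as for 4.51% of all genes, and the knockout arrays spread little, with an SD of 0.087. The difference was 0.77 (SE 0.16, 1.71-fold, adjusted p = 0.001127), and it was 0.74 without arrays 117 and 124 (adjusted p = 0.01379). All 18 alternatives kept the call, with adjusted p up to 0.01379. The control line, Casp8 fl/fl, had the lowest Tnfrsf1a mean of the 10 groups, -0.37 from Fadd fl/fl (limma adjusted p = 0.417). The Fadd fl/fl arrays of the other series, at 8.99 to 9.74, overlapped these FADD IEC-KO arrays. The neutrophil list means of arrays 89, 95 and 120 were 4.78, 4.68 and 4.87, no higher than on the floxed arrays. Their macrophage and monocyte list means were 7.34, 7.56 and 6.78, against 6.76 to 7.02 in Casp8 fl/fl, so arrays 89 and 95 were above every Casp8 fl/fl array and array 120 was not. The part of these cells in the Tnfrsf1a values was not tested.

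In series 1-30 the FADD IEC-KO arrays read 9.20, 10.59, 9.94, 9.66 and 9.59 for Tnfrsf1a, and Fadd fl/fl 9.35, 8.99, 9.11, 9.53 and 9.74. Only arrays 22 and 23 were above every floxed array. The difference was 0.45 (SE 0.16, adjusted p = 0.04297). It was 0.25 without array 22 and 0.14 without arrays 22 and 23 together, and neither passed (adjusted p 0.2879 and 0.7147). The call also ended without array 23 or any of the floxed arrays 26, 27 and 28 (differences 0.41, 0.45, 0.36 and 0.39), with group variance weights (adjusted p = 0.05361) and in a fit of the 10 arrays alone (0.2268). The effects of the 2 series differed by 0.32 (SE 0.23, adjusted p = 0.639).

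With caspase-8 loss, Tnfrsf1a passed in series 86-124 only. Arrays 87, 92, 100, 104 and 108 read 9.98, 9.12, 9.53, 9.91 and 9.21, and 4 of the 5 were above every Casp8 fl/fl array. The difference was 0.58 (SE 0.16, adjusted p = 0.03869). This call ended without any of 7 single arrays (87, 100 and 104 of the knockout, 86, 91, 105 and 119 of the controls), with differences of 0.47 to 0.69 over all 10, and at an adjusted p of 0.1904 in a fit of the 10 arrays alone. Pooling both series with a series term gave 0.23 (adjusted p = 0.2799). In the same comparison 3 of 7 fibroblast genes and 2 of 8 endothelial genes were lower, against 0.662% of all genes, and their part was not tested. In series 1-30 the knockout arrays read 9.25, 8.96, 9.14, 9.45 and 9.30, a difference of -0.12 (SE 0.16, adjusted p = 0.802). The effects of the 2 series differed by 0.70 (SE 0.23, unadjusted p = 0.003304, adjusted p = 0.344). The 2 floxed lines themselves differed by -0.37 in Tnfrsf1a, Casp8 fl/fl minus Fadd fl/fl (SE 0.16, adjusted p = 0.417), where 0.0359% of all genes passed.

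Tnfrsf1a in the co-deletions was below FADD IEC-KO without passing. The differences were -0.37 with Zbp1 loss, -0.44 with Mlkl loss and -0.52 with epithelial RIPK3 loss, each with SE 0.16 (adjusted p 0.125, 0.0907 and 0.102). The FADD IEC-KO RIPK3 IEC-KO arrays read 9.20, 9.31, 9.22, 8.97 and 9.41. All were below every FADD IEC-KO array of that series, as for 1.94% of all genes. Without arrays 117 and 124 that difference was -0.49. The differences with Zbp1 and Mlkl loss passed when FADD IEC-KO array 21, the lowest of its group, was left out (-0.52 and -0.59, adjusted p 0.01844 and 0.01071), and were -0.06 and -0.13 without arrays 22 and 23. In CASP8 IEC-KO, Mlkl loss gave 0.09 (SE 0.16), and the difference between the 2 backgrounds was 0.52 (SE 0.23, adjusted p = 0.379).

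Tnfrsf1b, the gene of TNFR2, rose in FADD IEC-KO of series 1-30. Arrays 21 to 25 read 7.56, 9.20, 8.60, 7.68 and 8.08, and the Fadd fl/fl arrays 7.15, 7.17, 6.85, 7.11 and 7.15. All knockout arrays were above all floxed arrays, as for 4.23% of all genes, with arrays 22 and 23 highest. The difference was 1.14 (SE 0.23, 2.20-fold, adjusted p = 0.00051), and 0.69 without arrays 22 and 23 (adjusted p = 0.07458), the single alternative of 18 that ended the call. In series 86-124 the FADD IEC-KO arrays read 7.41, 7.52, 8.86, 7.53 and 8.11 and the Casp8 fl/fl arrays 7.23, 7.20, 7.36, 7.60 and 7.23. Only arrays 117 and 124 exceeded every control. The difference was 0.56 (SE 0.23, adjusted p = 0.0995), and 0.16 without those 2 arrays. Pooling both series with a series term gave 0.85, which passed (adjusted p = 0.000117). The effects of the series differed by -0.57 (SE 0.32, adjusted p = 0.527).

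CASP8 IEC-KO gave Tnfrsf1b differences of 0.44 in series 1-30 and 0.39 in series 86-124 (SE 0.23 each, adjusted p 0.442 and 0.359). In series 86-124, arrays 87 and 104, the arrays high in Tnf, read 8.26 and 8.53, and the other 3 read 7.19 to 7.35. Over both series Tnfrsf1b was 0.43 lower in CASP8 IEC-KO than in FADD IEC-KO (SE 0.16, adjusted p = 0.104). That comparison passed without CASP8 IEC-KO array 104 or FADD IEC-KO array 21 (adjusted p 0.02448 and 0.03274), and the difference was -0.01 without arrays 22, 23, 117 and 124.

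Tnfrsf1b fell with Zbp1 loss in FADD IEC-KO, by 0.73 (SE 0.23, adjusted p = 0.03153). The arrays with Zbp1 loss read 7.48, 7.52, 7.45, 7.61 and 7.42. The call ended without array 22 or 23 (differences -0.48 and -0.63), without any of arrays 1, 2, 3 and 5 (-0.73 to -0.71) and in a fit of the 10 arrays alone (adjusted p = 0.1437), and the difference was -0.28 without arrays 22 and 23 together. Mlkl loss gave -0.63 (SE 0.23, adjusted p = 0.0842), which passed without FADD IEC-KO array 21 or 24 (adjusted p 0.01816 and 0.03648) and was -0.18 without arrays 22 and 23. Epithelial RIPK3 loss gave -0.42 (SE 0.23, adjusted p = 0.383), and Mlkl loss in CASP8 IEC-KO -0.28 (SE 0.23, adjusted p = 0.642).

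Tnfrsf1b in the co-deletions of series 1-30 stayed above the Fadd fl/fl arrays without passing. All 5 arrays with Zbp1 loss (7.42 to 7.61) and all 5 with Mlkl loss (7.46, 7.65, 7.65, 7.49 and 7.69) were above the highest floxed array, 7.17, as were all 5 CASP8 IEC-KO arrays (7.23 to 7.81). Of all genes, 1.79%, 1.21% and 1.11% stood in this way above Fadd fl/fl in the 3 groups. The differences were 0.41 and 0.50 for the co-deletions (SE 0.23, adjusted p 0.474 and 0.478). This SE rests on a spread pooled over all 10 groups, with an SD of 0.68 in FADD IEC-KO of series 1-30. The SDs were 0.075 with Zbp1 loss, 0.10 with Mlkl loss and 0.13 in Fadd fl/fl. In fits of the 10 compared arrays alone both differences passed (adjusted p 0.04837 and 0.03287). The Casp8 fl/fl arrays of the other series, at 7.20 to 7.60, were also all above Fadd fl/fl, as for 0.8% of all genes, with a difference of 0.24 (SE 0.23, adjusted p = 0.783). FADD IEC-KO RIPK3 IEC-KO differed from its own floxed controls by 0.14 and CASP8 IEC-KO Mlkl -/- by 0.16 (SE 0.23 each).

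In order of group means, Tnfrsf1b ran from 7.09 in Fadd fl/fl to 8.22 in FADD IEC-KO of series 1-30, and Tnfrsf1a from 8.97 in Casp8 fl/fl to 9.79 in FADD IEC-KO of series 1-30. FADD IEC-KO of series 86-124 and then CASP8 IEC-KO of series 86-124 came next below the top for both receptors, and for Tnf. Neighbours in these orders overlapped in every case.

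**Figure D3:**
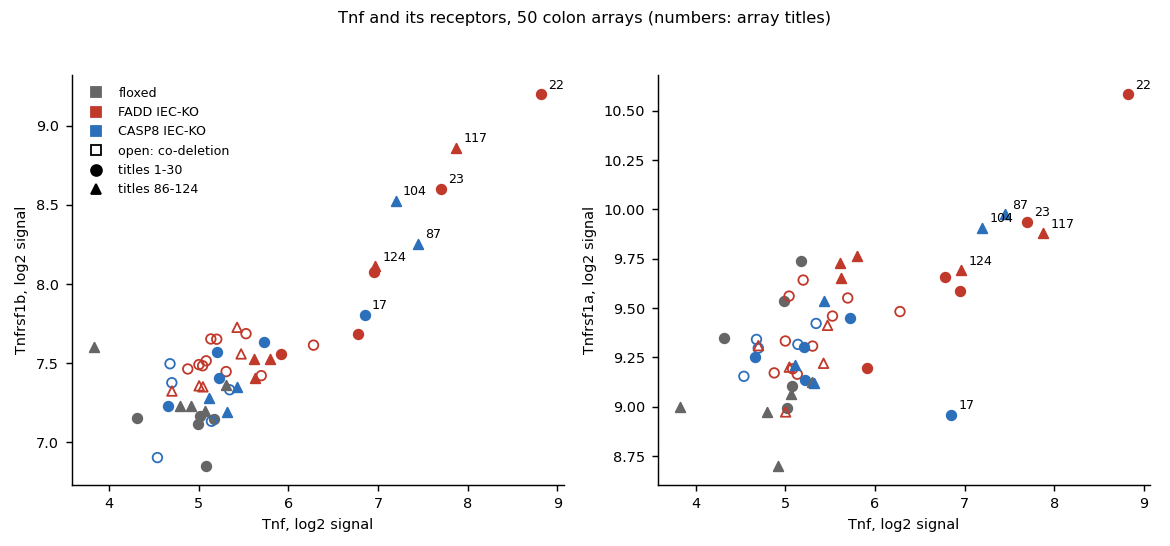
Tnf (x axis, log2 signal) against Tnfrsf1b (left) and Tnfrsf1a (right, y axes in log2 signal) on the 50 arrays, colour for genotype, open symbols for co-deletions and marker shape for the series. Arrays 22, 23, 117, 124, 87, 104 and 17 are numbered. The arrays high in Tnf, such as array 22 at 8.82, are also high in Tnfrsf1b (9.20 there), while Tnfrsf1a is high on arrays with little Tnf as well.

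Tnf and Tnfrsf1b varied together from mouse to mouse. Over the 50 deviations of arrays from their group means, Pearson's r was 0.81 for Tnf with Tnfrsf1b, 0.57 for Tnf with Tnfrsf1a and 0.65 between the receptors. The arrays share the group structure and a few arrays with large deviations, so these are descriptions. Birc2 and Birc3 had an r of 0.45, and Traf2 had an r between -0.02 and 0.19 with each of the other 5 genes. The deviations of the neutrophil list mean had an r of 0.83 with Tnfrsf1b, 0.73 with Tnf and 0.51 with Tnfrsf1a, and those of the smooth muscle list mean -0.77, -0.69 and -0.32. For the macrophage and monocyte list the values were 0.73, 0.60 and 0.61. For the T and NK cell list they were 0.66, 0.65 and 0.36, and for the B and plasma cell list 0.43, 0.38 and 0.26.

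Traf2, the adaptor that brings the cIAPs to the receptors, changed little. FADD IEC-KO arrays of series 1-30 read 7.29, 7.46, 7.55, 7.26 and 7.51 and Fadd fl/fl 7.19, 7.20, 7.30, 7.10 and 7.18, and 3 of the 5 were above every floxed array. The difference was 0.22 (SE 0.09, adjusted p = 0.0925). In series 86-124 it was -0.10 (SE 0.09, adjusted p = 0.530), and the 2 effects differed by -0.32 (SE 0.13, adjusted p = 0.336). Traf2 was lower by 0.34 with Zbp1 loss than in FADD IEC-KO (SE 0.09, adjusted p = 0.01379), on arrays reading 6.85, 7.26, 7.01, 7.20 and 7.04. That call ended without array 23 or array 1 (differences -0.30 and -0.28), without arrays 22 and 23 together (-0.28, adjusted p = 0.202) and in a fit of the 10 arrays alone (adjusted p = 0.1035). Mlkl loss gave -0.15 and epithelial RIPK3 loss 0.18 (SE 0.09 each), and neither passed.

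Birc2 and Birc3, the genes of cIAP1 and cIAP2, did not pass in any of the 17 comparisons. Birc2 group means spanned 0.21 log2 units, from 7.42 in FADD IEC-KO Mlkl -/- to 7.63 in Casp8 fl/fl, and Birc3 spanned 0.41, from 9.82 in FADD IEC-KO Mlkl -/- to 10.2 in CASP8 IEC-KO Mlkl -/-. With FADD loss Birc2 differed by -0.01 in each series (SE 0.12, 95% interval -0.25 to 0.22 in both). Birc3 differed by 0.10 and -0.07 (SE 0.13, 95% intervals -0.17 to 0.37 and -0.34 to 0.20). Birc3 is itself a target of NF-kappaB. Its lowest group was FADD IEC-KO Mlkl -/-, 0.39 below FADD IEC-KO (SE 0.13, adjusted p = 0.0704) and 0.29 below Fadd fl/fl (SE 0.13, adjusted p = 0.495). The former passed without array 12 of the Mlkl -/- group, the highest there (-0.46, adjusted p = 0.04712), and when the dimmest 40% of genes were left out of the adjustment (0.04795). The Birc3 difference with Mlkl loss was 0.51 higher in the CASP8 IEC-KO than in the FADD IEC-KO background (SE 0.19, adjusted p = 0.308), which did not pass. Birc2 differed most from Fadd fl/fl in FADD IEC-KO Mlkl -/- (-0.20, SE 0.12) and the difference with Mlkl loss in CASP8 IEC-KO was 0.12 (SE 0.12), while Birc3 was 0.13 above Fadd fl/fl in CASP8 IEC-KO Mlkl -/- (SE 0.13).

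Of the spread of group means over all 19494 genes, Tnf was at the 99.8th percentile, Tnfrsf1b at the 98.1st, Tnfrsf1a at the 95.0th, Birc3 at the 67.2nd, Traf2 at the 56.5th and Birc2 at the 10.4th. The genes whose 10 group means followed Tnf most closely were Tnfrsf8, the gene of CD30 (r = 0.995), Plet1 (0.995) and Clca4b (0.992). Tnfrsf1b was followed by Ly6i (0.989), Bcl2a1d (0.979) and Jchain (0.976), and Tnfrsf1a by Dap (0.977), Psmd3 (0.973) and Pitpna (0.970). For Traf2, Birc2 and Birc3 the closest genes were Pik3r2 (0.953), Abca14 (0.912) and Mid2 (0.895). Each is the highest or among the 3 highest of all genes tested, over only 10 group means.

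Genes listed as NF-kappaB targets that can respond to TNF rose in FADD IEC-KO of series 1-30, and whether TNF drove this was not tested. Of 17 in the list, 12 rose and none fell (8.59% and 10.1% of all genes), with a median difference of 0.58 beside -0.02 over all genes. Tnfaip2 rose by 1.55 (SE 0.34), and Tnfaip3, the gene of the deubiquitinase A20, by 0.84 (SE 0.20). The cytokine genes Il1b and Il6 rose by 3.55 (SE 0.86) and 1.59 (SE 0.43). The count was 4 without array 22 and 0 without arrays 22 and 23, where these 4 differed by 0.72, 0.54, 1.59 and 0.21, and 4 in a fit of the 10 arrays alone. In series 86-124, 4 of 17 rose (6.8% of all genes) with a median of 0.31, among them Tnfaip2 by 1.33 (SE 0.34) and Tnfaip3 by 0.65 (SE 0.20). That count was 0 without array 117 or in a fit of the 10 arrays alone, 2 without array 124 and 1 without floxed array 91, 105 or 119. Of the 12 macrophage and monocyte genes, 10 rose in series 1-30 and 7 in series 86-124. Of the 13 smooth muscle genes 13 and 4 fell (10.1% and 4.25% of all genes). The neutrophil list mean was 6.00 in FADD IEC-KO and 4.74 in Fadd fl/fl of series 1-30. In series 86-124 it was 5.44 in FADD IEC-KO and 4.88 in Casp8 fl/fl. The part of these cells in the list values was not tested.

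**Figure D4:**
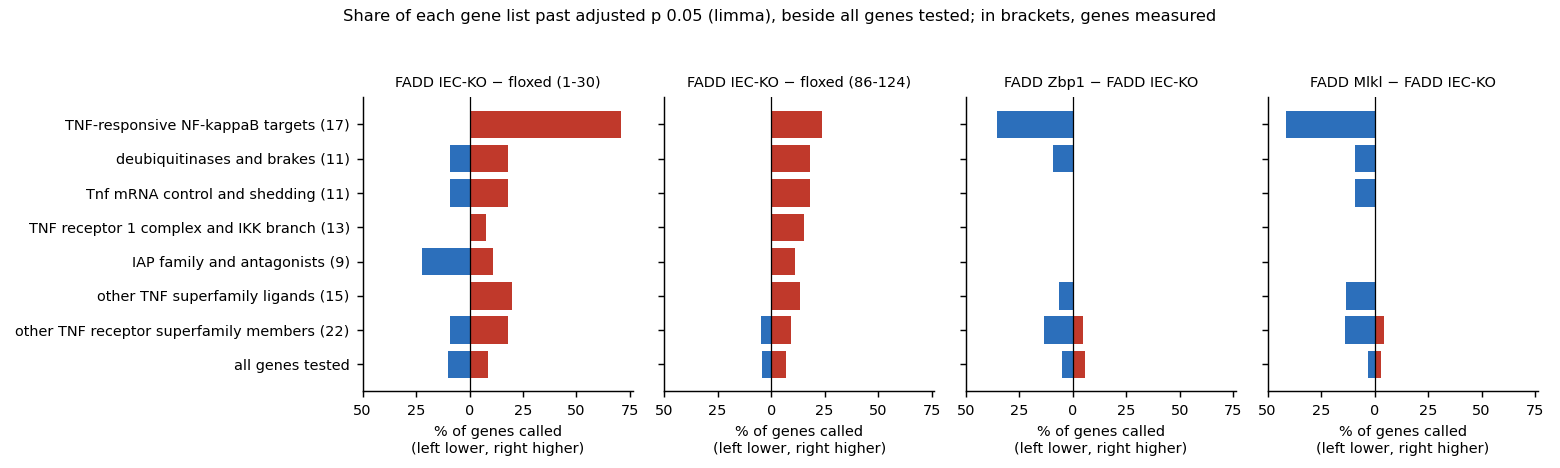
Share of each gene list that passed (x axis, percent of the genes measured, given in brackets; right and red higher, left and blue lower) in 4 comparisons, with all 19494 genes in the last row. NF-kappaB targets reach 12 of 17 with FADD loss in series 1-30 and 4 of 17 in series 86-124, and 6 and 7 of 17 were lower with Zbp1 and Mlkl loss. The other lists have between 0 and 4 genes called in a direction.

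The TNFR1 complex and the IKK branch below it form a list of 13 genes, of which 1 rose with FADD loss in series 1-30 (8.59% of all genes rose) and 2 in series 86-124 (6.8%). In series 1-30 it was Traf1 (0.43, SE 0.15), which did not pass without arrays 22 and 23 (0.23), without any of arrays 22, 23, 27 and 28 alone, or in a fit of the 10 arrays alone. In series 86-124 they were Sharpin (0.31, SE 0.07) and Rbck1 (0.25, SE 0.07), parts of the complex that makes linear ubiquitin chains. Both passed without arrays 117 and 124 (0.35 and 0.30) and did not in a fit of the 10 arrays alone (adjusted p 0.06155 and 0.1438).

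Of 11 deubiquitinases and other brakes, 2 rose and 1 fell in series 1-30 (8.59% and 10.1% of all genes), and 2 rose in series 86-124 (6.8%). In series 1-30 Tnfaip3 (0.84) and Otulin (0.31, SE 0.11), which encodes a deubiquitinase of linear chains, rose, and Tnip1, whose product binds A20, fell by 0.41 (SE 0.10). Without arrays 22 and 23 none of these 3 passed (0.54, 0.31 and -0.26), and in a fit of the 10 arrays alone Tnfaip3 did. In series 86-124 Tnfaip3 (0.65) and Cflar (0.22, SE 0.08), the gene of the caspase-8 inhibitor c-FLIP, rose. Neither passed without arrays 117 and 124 (0.30 and 0.21), without any of arrays 91, 105, 117 and 119 alone, or in a fit of the 10 arrays alone. The Otulin call also ended without any of arrays 22, 23, 25, 26, 27, 28 and 29 and with group variance weights. That of Cflar ended without array 89 or 95, with quantile normalization, group variance weights or the mean of probe sets, and with the series pooled. That of Tnfaip3 in series 86-124 ended without array 124. Traf1, Tnfaip3 and Cflar stand in the target list too.

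Of 11 genes of Tnf mRNA control and shedding, 2 rose and 1 fell in series 1-30, and 2 rose in series 86-124, beside the same shares of all genes. Zc3h12a, which encodes an RNase that degrades inflammatory mRNAs, rose by 1.45 and 1.04 (SE 0.26) in the 2 series. It was at 1.28 without arrays 22 and 23, which passed, and at 0.69 without arrays 117 and 124, which did not (adjusted p = 0.155). Rhbdf2, whose product helps the protease ADAM17 to shed TNF, rose by 0.31 (SE 0.10) in series 1-30, and Zfp36l1, an mRNA decay factor, fell by 0.38 (SE 0.14). Neither passed without arrays 22 and 23 (0.17 and -0.44) or in a fit of the 10 arrays alone. The Rhbdf2 call also ended without any of arrays 22, 27 and 30. That of Zfp36l1 ended without any of the 5 knockout arrays or of arrays 27, 29 and 30, with group variance weights and with the series pooled. Khsrp, also an mRNA decay factor, rose by 0.26 (SE 0.08) in series 86-124 and was at 0.36 without arrays 117 and 124. That call ended without any of arrays 91, 95, 119 and 120, with quantile normalization, with group variance weights and in a fit of the 10 arrays alone.

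Of 9 other IAP genes and antagonists, 1 rose and 2 fell in series 1-30 (8.59% and 10.1% of all genes). In series 86-124, 1 rose (6.8%). Xaf1, the gene of an XIAP-binding protein, rose in both (0.49 and 0.64, SE 0.17), and Naip6 and Diablo, the latter an antagonist of IAPs, fell by 0.26 (SE 0.09) and 0.20 (SE 0.07) in series 1-30. None of the 9 passed without arrays 22 and 23 in series 1-30 or without arrays 117 and 124 in series 86-124, where Xaf1 was at 0.41 in each. In a fit of the 10 arrays of series 1-30 alone only Xaf1 of these 3 passed. Single arrays also ended the Naip6 call (22, 23 and 27 to 30) and the Diablo call (21 and 23 to 28). Group variance weights and pooling of the series ended the Diablo call too. The Xaf1 calls also ended without any of arrays 22, 25, 27, 28 and 29 in series 1-30, and without array 117 or in a fit of the 10 arrays alone in series 86-124.

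Of 15 other TNF superfamily ligands, 3 rose in series 1-30 (8.59% of all genes) and 2 in series 86-124 (6.8%). Tnfsf10, the gene of the death ligand TRAIL, rose by 1.54 and 1.58 (SE 0.20, adjusted p 5.35e-06 and 3.13e-06). It was at 1.33 without arrays 22 and 23 and at 1.43 without arrays 117 and 124, and all 18 alternatives in each series kept the call. The others were Tnfsf13b, the gene of the B cell factor BAFF, in both series (0.30 and 0.40, SE 0.11) and Cd40lg, the gene of CD40 ligand, in series 1-30 (0.43, SE 0.15). None of these passed without arrays 22 and 23 or without arrays 117 and 124, so the counts were 1 and 1. The calls of series 1-30 also ended without any of arrays 22, 23, 24 and 27 to 30 for Tnfsf13b and of arrays 22, 23, 25 and 28 to 30 for Cd40lg. Group variance weights ended both of these, and pooling of the series ended that of Cd40lg. The Tnfsf13b call of series 86-124 ended without array 91 or 105 or in a fit of the 10 arrays alone. Tnfsf10 was lower than in FADD IEC-KO with Mlkl loss (-1.09, SE 0.20, adjusted p = 0.002086) and with epithelial RIPK3 loss (-1.05, SE 0.20, adjusted p = 0.01175). These differences were -0.87 without arrays 22 and 23 and -0.90 without arrays 117 and 124, and neither passed (adjusted p 0.1363 and 0.09959). With Zbp1 loss Tnfsf10 was 1.31 above Fadd fl/fl (SE 0.20, adjusted p = 0.0001849), a call that all 16 alternatives kept.

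Of 22 other receptors, 4 rose and 2 fell in series 1-30 (8.59% and 10.1% of all genes), and 2 rose and 1 fell in series 86-124 (6.8% and 4.25%). Tnfrsf8 rose by 1.72 and 1.02 (SE 0.32), and was at 1.45 without arrays 22 and 23, which passed, and at 0.55 without arrays 117 and 124, which did not. The latter call also ended without any of arrays 86, 117, 119 and 124 and in a fit of the 10 arrays alone. Eda2r, a receptor of an ectodysplasin, fell by 0.62 and 0.58 (SE 0.15) and passed without those pairs of arrays too, but not in a fit of the 10 arrays of series 86-124 alone (adjusted p = 0.09281). Tnfrsf19 fell by 0.48 (SE 0.10) in series 1-30 and passed without arrays 22 and 23 (-0.39), and Tnfrsf17, the gene of the plasma cell receptor BCMA, rose by 0.71 (SE 0.18) and did not pass without them (0.60). Ltbr, the gene of the lymphotoxin beta receptor, rose by 0.38 (SE 0.07) in series 86-124, and its 18 alternatives kept the call. Without arrays 22 and 23 the counts of series 1-30 were 1 higher and 2 lower, and without arrays 117 and 124 those of series 86-124 were 1 and 1. In fits of the 10 arrays alone they were 2 and 2 in series 1-30 and 1 and 0 in series 86-124.

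Part of the target list was lower than in FADD IEC-KO with Zbp1 loss and with Mlkl loss. With Zbp1 loss 6 of 17 fell and none rose (5.14% and 5.61% of all genes), with a median of -0.49. Among them were Tnfaip3 (-0.82, SE 0.20) and Il1b (-3.25, SE 0.86). With Mlkl loss 7 of 17 fell and none rose (2.93% and 2.91% of all genes), with a median of -0.44. They included Tnfaip3 (-0.91, SE 0.20), Nfkbia (-0.83, SE 0.17), which encodes the NF-kappaB inhibitor, and Cxcl2 (-2.39, SE 0.63). Both counts were 0 without arrays 22 and 23, and 0 and 1 in fits of the 10 arrays alone. Without array 22 they were 0 and 2, without array 23 both were 2, and without array 21 they were 12 and 11. With epithelial RIPK3 loss none of 17 passed (0.595% of all genes fell and 0.159% rose), and the median was -0.32. An unadjusted p under 0.05 was found for 8 of the 17 and for 14.6% of all genes. In CASP8 IEC-KO none of the 17 passed in either series, with medians of 0.15 and 0.16. There 1 of the 17 had an unadjusted p under 0.05 in each series, against 11.7% and 18.3% of all genes.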

How the data were processed

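Total RNA of colon tissue was hybridised to Affymetrix whole-transcript arrays, 100 ng per mouse per the labels. Each probe set has a deposited log2 signal, made by the authors in Affymetrix Expression Console and Transcriptome Analysis Console per the submitters' processing notes. The sources used here give no version, normalization algorithm or genome build. Array medians ran from 6.41 to 6.47, and precision is limited by 5 arrays a group. The labels do not say whether the title series are batches, nor that mice of a group came from separate litters. The p-values rest on the spread between these mice, pooled for each gene over all 10 groups. Group SDs of Tnf ran from 0.25 in FADD IEC-KO Mlkl -/- to 1.12 in CASP8 IEC-KO of series 86-124. The pooled spread is therefore not that of the groups compared.

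The array has 22142 probe sets, 2615 without a symbol and 19527 with 1. The probe set with the highest mean stood for its symbol, which dropped 33. A linear model with 10 group means over 50 arrays (40 residual degrees of freedom) was fitted in limma 3.58.1 (R 4.3.3) with empirical Bayes moderation, with Benjamini-Hochberg adjustment of its p-values over 19494 genes. It was tested on simulated data that had the same spread in every group. That test cannot show how the model performs where group spreads differ, as they do for Tnf. RefSeq (GRCm38.p6) gave gene positions and promoters for all 6 genes. No detection calls were used, so no gene was called absent.

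The 6 genes and the lists were chosen with earlier results of these data known. Named were the 6 genes, the targeted genes, up to 4 passing genes of a list by adjusted p (or 2 by size where none passed), the first 3 symbols of a cell type list and the 3 genes closest to each of the 6 by r. Of the list genes, those without a symbol on the array, such as Ripk1, Traf3 and Chuk, were not analysed here. Alternatives were quantile normalization, leaving out the dimmest 40% of genes (Tnf among them), trend and robust moderation, group variance weights, the mean of probe sets, fits of the compared arrays alone, pooled series with a series term, leaving out arrays 22 and 23, and each array in turn. Leaving out arrays 117 and 124, and the alternatives for the gene lists and their named genes, were added after seeing the data.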

Additional observations from a re-analysis of the deposited data

Results flagged for a closer look

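Among 60 sets of 5 arrays (6 genes in 10 groups), 4 held an array whose gap to its nearest neighbour, over the range of the 5, was above Dixon's 95% critical value of 0.710. Chance gives about 1 in 20. Birc2 read 8.06 on Casp8 fl/fl array 119, with the next array at 7.56. Birc2 read 7.60 on FADD IEC-KO Mlkl -/- array 12, with the next at 7.40. Tnf read 4.31 on Fadd fl/fl array 26, below the next at 4.99. Tnfrsf1b read 6.85 on Fadd fl/fl array 28, below the next at 7.11. The rises of Tnf and Tnfrsf1b with FADD loss in series 1-30 passed without either of the last 2 arrays.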

How the results depend on the processing

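The 62 reported differences of the 6 genes were recomputed under the alternatives, which gave 1155 values. Of these values, 1052 kept the direction and the side of the threshold, 72 lost a call, 13 gained one and 18 changed sign, none of the last with an adjusted p under 0.05 on either side. Only differences that had passed could lose a call, and most had not, so the 72 are a larger share of the calls than of the 1155. With FADD loss, Tnf in series 1-30 kept its call in 17 of 17 alternatives and Tnfrsf1a in series 86-124 in 18 of 18. The Tnf call between the single knockouts was kept in 11 of 28. That of Tnfrsf1a in CASP8 IEC-KO of series 86-124 was kept in 6 of 17. Without the cause being tested, pooling both series turned Birc3 (to 0.017) and Traf2 (to 0.0593) of FADD IEC-KO against floxed in series 86-124, and Tnfrsf1a of CASP8 IEC-KO in series 1-30 (to 0.227). Leaving out 1 array, Birc2 with FADD loss ran from -0.0941 to 0.0592 in series 1-30 and from -0.109 to 0.0957 in series 86-124, and Birc3 in series 86-124 from -0.198 to 0.0473. In CASP8 IEC-KO Mlkl -/- against Fadd fl/fl, Tnf ran from -0.184 to 0.0518 and Tnfrsf1a from -0.127 to 0.0597.

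The count of the 6 genes called was 2 for CASP8 IEC-KO against FADD IEC-KO. It was 0 with the series pooled, with group weights, in fits of the compared arrays alone, without arrays 22 and 23 and without the 4 arrays, 1 with trend and robust moderation, 1 without the dimmest genes, and 0 to 3 leaving out 1 array. For CASP8 IEC-KO against floxed in series 86-124 it was 1, and 0 with the series pooled, group weights, the compared arrays alone or quantile normalization, and 0 to 2 leaving out 1 array. For FADD IEC-KO in series 1-30 it was 3, and 1 without arrays 22 and 23 (2 to 3 leaving out 1). In series 86-124 it was 2, and 1 with the compared arrays alone, without arrays 117 and 124 and without the dimmest genes, a filter that removes Tnf (1 to 2 leaving out 1). Against FADD IEC-KO it was 1 with Mlkl loss and 3 with Zbp1 loss, and 0 for both with the compared arrays alone and without arrays 22 and 23 (1 to 3 and 1 to 4 leaving out 1). Against floxed, both counts were 0, and 1 with the compared arrays alone.

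The 12 NF-kappaB targets called in FADD IEC-KO of series 1-30 became 4 with the compared arrays alone, 0 without arrays 22 and 23, 7 without the dimmest genes and 4 to 13 leaving out 1 array. The 4 of series 86-124 became 12 with the series pooled, 0 with the compared arrays alone, 0 without arrays 117 and 124 and 0 to 6 leaving out 1. With Mlkl loss the 7 became 1, 0 without arrays 22 and 23, 4 without the dimmest genes and 2 to 11 leaving out 1, and with Zbp1 loss the 6 became 0, 0 without arrays 22 and 23 and 0 to 12 leaving out 1. No paired analysis was possible because no title number is shared between groups.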
